A study of Mus musculus with 194 samples.

Results

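The 44 genes described here encode the proteins with which a mammalian cell leaves G1 phase and copies its DNA: the replicative helicase and its loading factors, cyclin E, E2F transcription factors, the replicative polymerases and their clamp, the enzymes of deoxynucleotide supply, and S-phase checkpoint, repair and chromatin assembly factors. They were chosen as a list of symbols, not by a cut on their values, though earlier results of these data were known. All 44 were found among the 23416 gene names used. Their mRNA was measured by single-cell RNA-seq in primary CD8+ T-cells of C57BL/6J mice, activated for 30 h with anti-CD3 and anti-CD28 and kept in IL2, and in L1210 cells, a mouse lymphocytic leukemia line of strain DBA subline 212, which received no such treatment. Single founder cells were grown in hydrodynamic traps on a chip, their divisions were filmed, and the progeny were released one by one, so that each library carries the hours since the cell's last division and the names of its sister and cousins. The T-cells came from spleens of mice of both sexes and several ages, with no cell tied to an animal, and the leukemia cells are a single line. Founder lineages are therefore the replicates of the fits over hours. The lineage and sister tests instead set lineages or sister pairs against the spread of the cells within them. No p-value below measures the spread between animals or cultures.

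In cycling mammalian cells, origins are licensed in G1 when ORC, Cdc6 and Cdt1 load the Mcm2-7 helicase onto chromatin. Cyclin E with Cdk2 and the release of E2F factors from retinoblastoma proteins then start S phase, in which Cdc45 and GINS activate the helicase and polymerases copy the DNA behind it. Many of these genes are E2F targets whose mRNA rises around the G1/S transition and declines later. Activated T-cells divide unusually fast, with a short G1. By role, the 44 members are 15 licensing and helicase genes (Mcm2 to Mcm7, Mcm10, Cdc6, Cdt1, Cdc45, Gins1, Gins2, Orc1, Orc6 and Gmnn), 5 cyclin E and E2F genes (Ccne1, Ccne2, E2f1, E2f2 and E2f8), 13 polymerase and fork genes (Pcna, Pola1, Pola2, Prim1, Pold1, Pole, Rfc3, Rfc4, Rfc5, Rpa2, Fen1, Lig1 and Dscc1), 4 nucleotide supply genes (Rrm1, Rrm2, Tyms and Tk1) and 7 checkpoint, repair and chromatin genes (Chek1, Clspn, Dtl, Ung, Slbp, Chaf1a and Chaf1b). All 44 passed the filter on low values in both cell types.

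After doublets and libraries with fewer than 1000 genes above 0 TPM were left out, 97 CD8+ T-cells in 34 lineages and 81 L1210 cells in 26 lineages remained of the 194 libraries. Hours since division ran from 0.5 to 9.475 (median 4.41, 94 cells with a time) in the CD8+ T-cells and from 0.354 to 12.8 (median 4.45, 81 cells) in the L1210 cells. The number of genes above 0 TPM ranged from 2639 to 10905 (median 6862) per CD8+ T-cell and from 1610 to 10454 (median 8402) per L1210 cell. The defining markers were high in the labelled cell type and low in the other: the summed level of 5 CD8 T-cell genes was 395 to 5350 TPM in CD8+ T-cells and 0 to 38.4 TPM in L1210 cells, and that of 5 B-lineage genes was 0 to 283 TPM and 193 to 4130 TPM. Cd3d and Cd3e were above 0 in 97 of 97 CD8+ T-cells and the B-lineage gene Vpreb1 in none of them, while Vpreb1 was above 0 in 78 and Cd79a in 80 of 81 L1210 cells and Cd3e in none. Against the labels, the B-cell gene Ms4a1 was above 0 in 1 of 81 L1210 cells, and Cd8b1, Cd8a and Cd3d were above 0 in 23, 10 and 8 of them. Of the markers of other cell types, Cd79b was above 0 in 47 of 97 CD8+ T-cells and the myeloid gene Lyz2 in 36 of 81 L1210 cells (highest level 110 TPM), and Ncr1 of natural killer cells was listed at 0 in every cell of both types. Their part in the results was not tested. No pair of libraries was a copy of another (highest correlation over all genes 0.969).

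Promoter sequence is shown first for 4 members, because E2F sites are the sequence feature most tied to this group of genes. All 4 were called in the CD8+ lineage test below without hours in the fit. Ung, Cdc6 and Dtl were among its members of lowest p, and Mcm6 was not. RefSeq promoter windows of GRCm38.p6 (250 bases before and 50 after the annotated start, 300 in all) were found for 37 of the 44 members. Ccne2 and Mcm4, called for the course below, were not among them. The stretches of 100 bases below, for the 4 members shown, lie upstream of the start. They are written 5′ to 3′ on the gene's strand and carry matches to the E2F motif in capitals. The motif was searched on both strands as TTTCCCGC, TTTGGCGC, TTTCGCGC or TTTGCCGC, and neighbouring matches may overlap, as the first pair in Mcm6 does.
Ung (chr5:114130335-114130434, plus strand, bases 100 to 1 before the start): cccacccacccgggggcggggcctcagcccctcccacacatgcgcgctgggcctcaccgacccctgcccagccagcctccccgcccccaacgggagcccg
Cdc6 (chr11:98908001-98908100, plus strand, bases 150 to 51 before the start): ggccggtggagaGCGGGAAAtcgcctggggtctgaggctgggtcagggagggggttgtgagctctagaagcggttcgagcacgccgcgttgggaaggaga
Mcm6 (chr1:128359726-128359825, minus strand, bases 120 to 21 before the start): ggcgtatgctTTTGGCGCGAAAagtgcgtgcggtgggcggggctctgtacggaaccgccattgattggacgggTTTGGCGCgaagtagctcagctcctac
Dtl (chr1:191575545-191575644, minus strand, bases 100 to 1 before the start): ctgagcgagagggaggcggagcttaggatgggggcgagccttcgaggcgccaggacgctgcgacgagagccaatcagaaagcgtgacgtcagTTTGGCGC
The stretch of Cdc6 holds 1 match, that of Mcm6 holds 3 and that of Dtl holds 1, while these letters do not occur in the stretch of Ung. Over the 300-base windows, 14 of the 37 members (37.8%) held an E2F match, against 2.6% of all 27025 genes with a promoter and 1 of 35 G2 and mitosis genes (2.86%). The other members with a match were Mcm3, Mcm5, Mcm7, Cdt1, Pola1, Pold1, Rfc3, Lig1, Clspn, Orc1 and E2f2. CCAAT, the site of the factor NF-Y, searched on both strands, was in the windows of 59.5% of the 37 members. It was in those of 41.1% of all genes with a promoter and of 74.3% of the G2 and mitosis genes, a higher share than in the members. TTTGAA, searched in the same way and the core of the CHR element found in many mitotic promoters, was in those of 13.5% of these members, 20.2% of all genes and 68.6% of the G2 and mitosis genes. A match of letters describes the sequence and is not evidence of binding.

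The level of the group was read first, since it sets how well each gene can be followed in a single cell. Pcna, the sliding clamp of the replicative polymerases, had the highest median of the 44 genes in both cell types, 817 TPM in CD8+ T-cells (lowest cell 64.8 TPM) and 368 TPM in L1210 cells (lowest cell 0 TPM). Rrm2, the small subunit of ribonucleotide reductase, followed with medians of 459 and 239 TPM. At the other end, E2f1, which activates many of these genes, had a median of 0.32 TPM in CD8+ T-cells and 4.61 TPM in L1210 cells and was above 0 in 51.5% and 67.9% of the cells. Genes at such levels are read as present or listed at 0 rather than as graded.

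Per lineage, 38 of the 44 members had the higher mean log2(TPM + 1) in CD8+ T-cells, and the median difference over the members was 0.777 log2 units, whereas 23.03% of all 9158 genes compared were higher there and the median over all genes was -0.662. Tk1, thymidine kinase of the nucleotide salvage pathway, differed most, at 7.43 ± 1.15 log2 units (SD over 34 lineages) in CD8+ T-cells and 4.70 ± 1.75 (SD over 26 lineages) in L1210 cells. Lig1, the ligase that joins Okazaki fragments, and E2f2 came next, with differences of 2.03 and 1.93 log2 units. The 6 members with the lower mean in CD8+ T-cells were Ung (-0.87), E2f1 (-0.82), Gins2 (-0.64), Cdt1 (-0.50), Orc1 (-0.02) and Chaf1a (-0.004), and all 6 differences are smaller than the SD between lineages. With the larger SD of either cell type taken, the same is true of most of the 38 higher members. Mcm2, Mcm4, Ccne1 and Pold1 are among these, but Tk1, Lig1 and E2f2 are not. All 13 polymerase and fork genes and all 4 nucleotide supply genes were higher in CD8+ T-cells. These are descriptions with no test, since lineages are replicates within a cell type and cell type cannot be told apart from strain, treatment and culture here.

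Within each cell type the members followed each other to different degrees. Over 946 pairs of members, the median correlation of log2(TPM + 1) across cells was 0.214 (97 CD8+ T-cells) and 0.424 (81 L1210 cells), with 87.9% and 99.3% of the pairs above 0. In CD8+ T-cells, Mcm3 (r = 0.755 with the mean of the other members) and Mcm5 (0.735) followed the group most closely and Tyms (0.0546) and Tk1 (0.0625) least, and in L1210 cells Rrm2 (0.843) and Mcm2 (0.820) followed it most and E2f1 (0.237) least. All genes of a cell share that cell's library. The mean of the members followed the number of detected genes (r = 0.608 and 0.686), and the median pairwise correlation left after regression on that number was 0.157 and 0.283.

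The first comparison asks how the members change between a division and the next. In CD8+ T-cells the mean of the group was highest soon after division and Ung, Ccne2 and Mcm4 fell with time, whereas in L1210 cells 38 of the 44 members had their highest mean 3 to 6 h after division and no single member passed the test. The mean over the 44 genes was 6.12 ± 0.358 log2 units (SD over 23 cells of 9 lineages) under 3 h in CD8+ T-cells, 5.70 ± 0.947 (45 cells, 14 lineages) from 3 to 6 h, 5.42 ± 0.699 (23 cells, 8 lineages) from 6 to 9 h, and 4.13 ± 1.35 in the 3 cells of 1 lineage at 9 h and later. In L1210 cells the same mean was 4.99 ± 0.827 (33 cells, 10 lineages), 5.64 ± 0.672 (20 cells, 7 lineages), 4.53 ± 1.46 (16 cells, 6 lineages) and 4.25 ± 1.72 (12 cells, 7 lineages). The bins overlap widely in both cell types, and the number of detected genes moved with them, with medians of 7237, 7109, 6742 and 5726 genes in CD8+ T-cells and 8198, 9188, 8448 and 8797 in L1210 cells. Its part in the result was not tested beyond the fits given below that include it or leave out sparse cells.

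**Figure D1:**
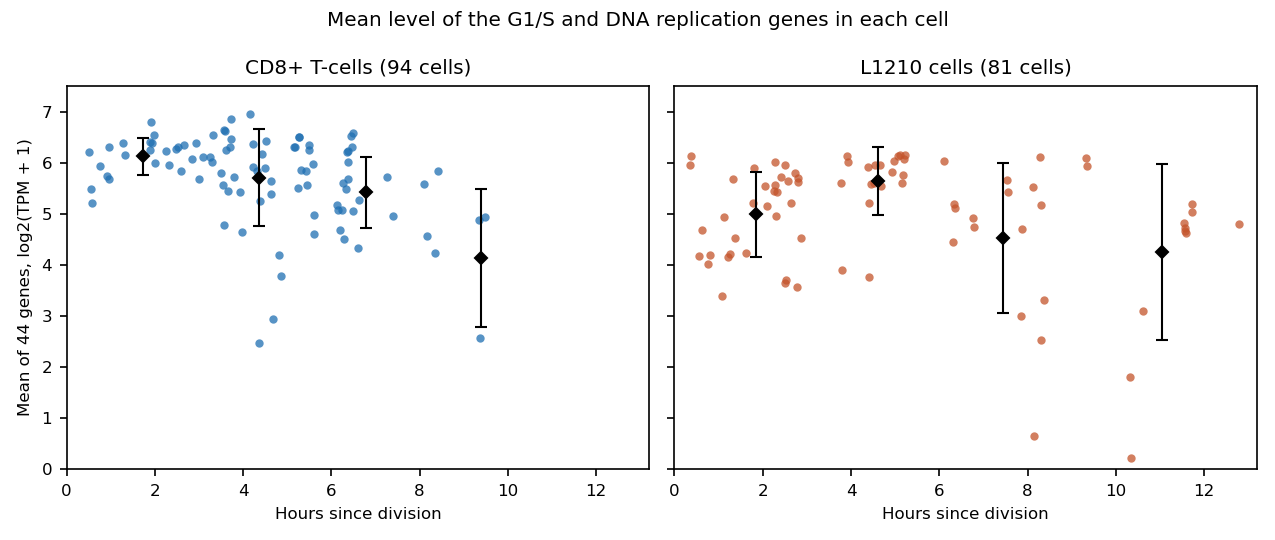
Mean log2(TPM + 1) of the 44 genes (vertical axis) against hours since division (horizontal axis) in 94 CD8+ T-cells (left) and 81 L1210 cells (right). Each point is a cell and black diamonds with bars are the mean ± SD of the cells under 3 h, from 3 to 6 h, from 6 to 9 h and at 9 h and later. The CD8+ T-cell means step down from 6.12 to 4.13, and the L1210 means are highest, at 5.64, in the second bin.

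By gene, 28 of the 44 members (63.6%) had their highest bin mean under 3 h in CD8+ T-cells, against 46.9% of all 9995 genes tested. In cells with 4000 or more detected genes the count was 19 of 44 (43.2%, against 35.5% of all genes), and 16 members then stood highest in the last bin, which holds 2 cells. In L1210 cells the 38 members highest at 3 to 6 h (86.4%) compare with 37.5% of all 10534 genes, and with 40 members (90.9%) and 35.6% of all genes in cells with 4000 or more detected genes. The 6 exceptions in L1210 cells were E2f2, Orc1, Rfc3 and Rrm1, which were highest under 3 h, and E2f1 and Prim1, which were highest from 6 to 9 h.

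**Figure D2:**
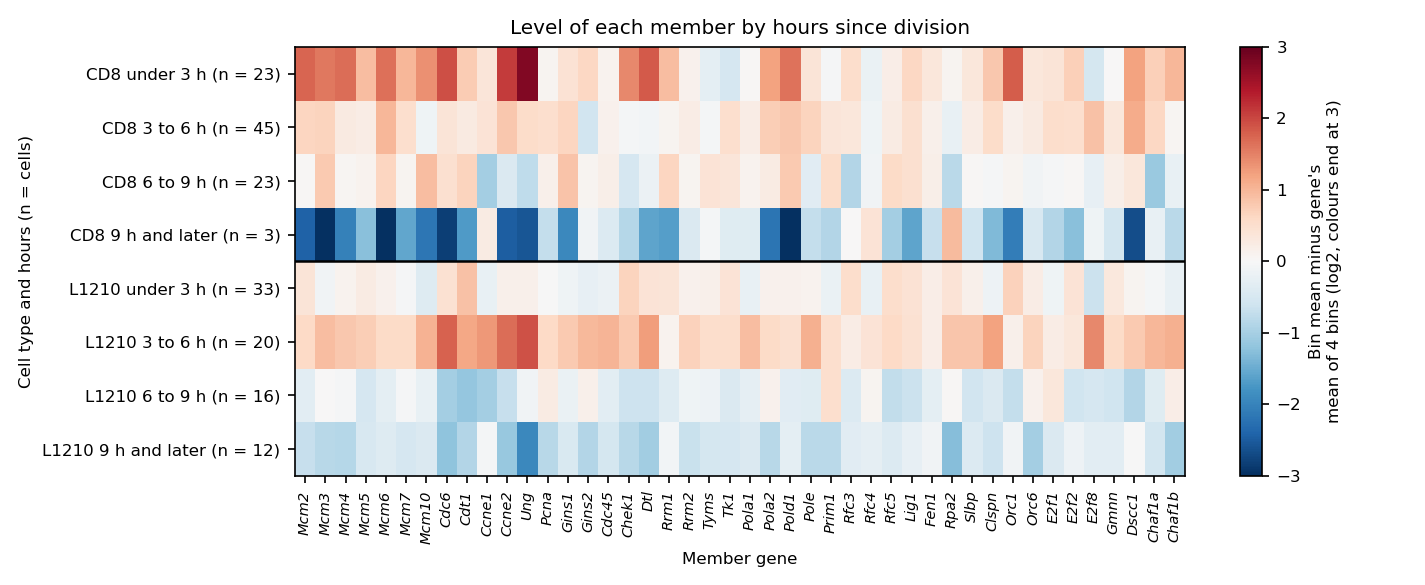
Bin mean of each member minus that gene's average over its 4 bins, in log2 units, for CD8+ T-cells (upper 4 rows) and L1210 cells (lower 4 rows). The number of cells is given beside each bin and colours end at 3 log2 units. Red under 3 h in CD8+ T-cells is deepest for Ung and Ccne2, and red from 3 to 6 h in L1210 cells is deepest for Ung, Cdc6 and Ccne2.

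A course with a linear and a quadratic term of hours, tested by limma with the lineage as a random block and adjusted by Benjamini-Hochberg over all genes tested, called 3 of 44 members in CD8+ T-cells, where 0.88% of 9995 genes were called. They were Ung (adjusted p = 0.002), Ccne2 (adjusted p = 0.00551) and Mcm4 (adjusted p = 0.0365). With the linear term alone the same 3 members were called, all falling, where 0.23% of genes were called in either direction, 0.09% as falling and 0.14% as rising. The median slope of the 44 members was -0.123 log2 units per hour and 37 slopes were below 0, against a median of -0.0437 and 66.8% below 0 over all genes. Without the 3 cells of 9 h and later, Ung alone was called (adjusted p = 0.0196) of the 44, where 0.33% of genes were called, and Ccne2 (adjusted p = 0.0541) and Mcm4 (adjusted p = 0.162) were not. The slope test without these cells likewise called Ung alone (adjusted p = 0.00892, limma).

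Ung encodes uracil-DNA glycosylase, which removes uracil from newly made DNA. Its level in CD8+ T-cells ran from 0 over a median of 58.5 to 187 TPM under 3 h, from 0 over 12.7 to 189 TPM from 3 to 6 h, and from 0 over 0 to 89.3 TPM from 6 to 9 h, and it was listed at 0 in the 3 later cells. It was above 0 in 22 of 23, 33 of 45, 8 of 23 and 0 of 3 cells, so that the bins overlap at their ends while the share of cells with the transcript drops. The fitted slope was -0.62 ± 0.12 log2 units per hour (SE, n = 94 cells), and -0.62 without the cells of 9 h and later. In L1210 cells Ung was above 0 in 26 of 33 cells under 3 h (median 37.9 TPM), 20 of 20 from 3 to 6 h (lowest 21.3, median 68.03, highest 281 TPM), 14 of 16 from 6 to 9 h (median 24.4 TPM) and 6 of 12 later (median 5.10 TPM). The fitted curve in L1210 cells peaked 5.02 h after division, and its adjusted p of 0.0865 in limma was the lowest of the 44 there but missed the threshold of 0.05, and ran from 0.0105 to 0.474 when single lineages were left out.

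Ccne2 encodes cyclin E2, a partner of Cdk2 at the start of S phase. In CD8+ T-cells it was above 0 in 22 of 23 cells under 3 h (lowest 0, median 27.9, highest 89.3 TPM), 34 of 45 from 3 to 6 h (median 15.4 TPM), 12 of 23 from 6 to 9 h (median 2.29 TPM) and 0 of 3 later, with a slope of -0.51 ± 0.11 log2 units per hour (SE, n = 94 cells). In L1210 cells its medians were 10.4, 23.3, 1.21 and 3.88 TPM in the 4 bins, and the course was not called (adjusted p = 0.764, limma). Ccne1, the other cyclin E gene, had CD8+ T-cell medians of 129, 96.8, 43.2 and 54.8 TPM and L1210 medians of 49.4, 69.6, 12.6 and 34.2 TPM, and it was not called in either cell type (adjusted p = 0.846 and 0.959, limma).

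Mcm4 is a subunit of the replicative helicase. In CD8+ T-cells it ran from 69.4 over a median of 184 to 472 TPM under 3 h, from 0 over 112 to 286 TPM from 3 to 6 h, from 0 over 98.7 to 214 TPM from 6 to 9 h, and was 2.78, 15.7 and 53 TPM in the 3 later cells. Its slope was -0.36 ± 0.09 log2 units per hour (SE, n = 94 cells), and all 15 licensing and helicase genes had a slope below 0 there (from -0.376 to -0.0109). Mcm2, Mcm3 and Mcm6 were among the 8 members of lowest p in the course test, with adjusted p of 0.107, 0.106 and 0.121 in limma. Mcm2 went from a median of 221 TPM under 3 h over 148 and 105.3 to 15.7 TPM, Mcm6 from 313 over 304 and 273 to 3.45 TPM, and Mcm5 from 391 over 328 and 295 to 147 TPM. For Mcm6 and Mcm5 the largest step between neighbouring bins is the last, to the single lineage at 9 h and later. In L1210 cells Mcm2 had medians of 102.3, 146, 123 and 108 TPM, Mcm5 of 119, 173, 161 and 129 TPM and Mcm6 of 141, 161, 151 and 147 TPM, highest from 3 to 6 h in each.

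**Figure D3:**
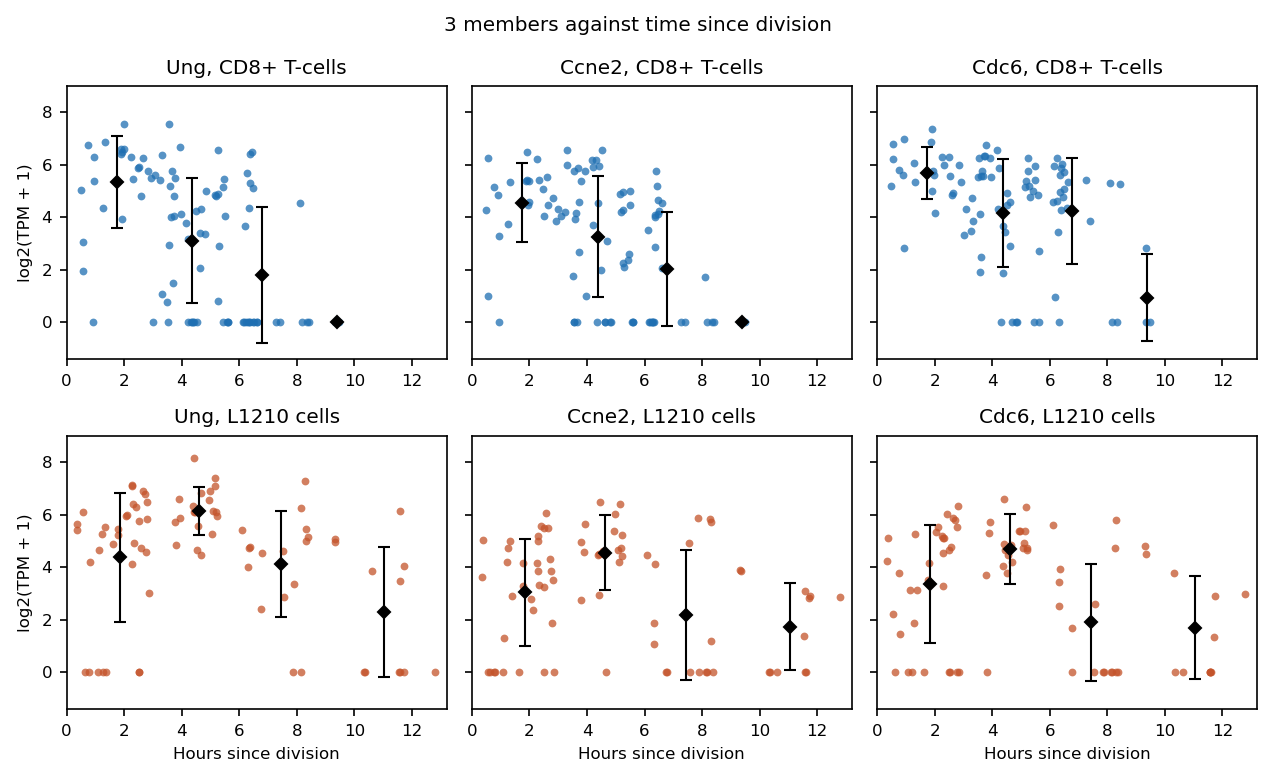
Level of Ung, Ccne2 and Cdc6 in log2(TPM + 1) against hours since division, in CD8+ T-cells (upper row) and L1210 cells (lower row). Each point is a cell and black diamonds with bars are bin means ± SD as in the plot of the members' mean. In CD8+ T-cells 1 of 23 cells lies at 0 for Ung under 3 h and 15 of 23 from 6 to 9 h, and in L1210 cells all 20 cells from 3 to 6 h are above 0 for Ung.

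Cdc6 and Cdt1 load the helicase at origins. Cdc6, whose promoter stretch is printed above, had CD8+ T-cell medians of 52.8, 26.4 and 30.6 TPM in the first 3 bins and 1 of 3 later cells above 0 (adjusted p = 0.0683 for the course, limma). In L1210 cells Cdc6 was above 0 in 25 of 33, 19 of 20, 8 of 16 and 6 of 12 cells, with medians of 16.7, 26.8, 1.11 and 0.76 TPM (adjusted p = 0.57, limma). Cdt1 had CD8+ T-cell medians of 149, 115, 138 and 62.1 TPM. It had L1210 medians of 245, 278, 86.03 and 113 TPM and the steepest slope of the 44 there, -0.25 ± 0.06 log2 units per hour (SE, n = 81 cells), which did not pass (adjusted p = 0.343, limma). Gmnn, the inhibitor of Cdt1, had medians of 263, 278, 205 and 245 TPM in CD8+ T-cells and 106.1, 172, 112 and 74.7 TPM in L1210 cells and was not called in either.

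Of the 4 genes of nucleotide supply, Rrm1 had its highest bin mean under 3 h in CD8+ T-cells and Tk1, Tyms and Rrm2 did not. Rrm1, the large subunit of ribonucleotide reductase, had medians of 220, 189, 206 and 38.3 TPM. Tk1 had medians of 130, 248, 251 and 365 TPM, with its fitted peak at 5.80 h (adjusted p = 0.121 for the course, limma), and Tyms, thymidylate synthase, had medians of 57.4, 74.8, 83.4 and 122 TPM. Rrm2 had medians of 386, 522, 439 and 553 TPM. Slopes were above 0 for Tk1 and Tyms (0.15 ± 0.07 and 0.10 ± 0.06 log2 units per hour, SE), for 4 of the 13 polymerase and fork genes and for E2f8, and none of these 7 passed the test (adjusted p from 0.347 to 0.972, limma). Slbp, which binds histone mRNA, had medians of 309, 335, 305 and 388 TPM, and Pcna 750, 980, 768 and 639 TPM. In L1210 cells Tk1 had medians of 40.5, 54.1, 60.2 and 49.1 TPM, and Rrm2 (236, 295, 231 and 183 TPM), Tyms (51.8, 55.5, 52.95 and 49.3 TPM), Slbp (123, 163, 111 and 79.4 TPM) and Pcna (325, 482, 385 and 282 TPM) had their highest median from 3 to 6 h. E2f1 had medians of 0.98, 1.08, 0 and 0.33 TPM in CD8+ T-cells and of 3.32, 5.12, 6.08 and 3.50 TPM in L1210 cells.

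In L1210 cells the course test called 0 of 44 members, where 0.00949% of 10534 genes (1 gene) were called in limma, and 12 of 44 members (27.3%) had an unadjusted p under 0.05, against 5.01% of all genes. The slope test called 0 of 44, where 0% of genes were called, and 8 members (18.2%) had an unadjusted p under 0.05, all with a slope below 0, against 6.43% of all genes. Slopes were below 0 for 42 of 44 members (median -0.0709 log2 units per hour), against 67.7% of all genes (median -0.0247). The 8 members of lowest course p were Ung, Cdt1, Cdc6, Rpa2, Ccne2, Chek1, Dtl and Mcm3. Rpa2, a subunit of the protein that coats single-stranded DNA, had medians of 83.5, 104.98, 74.1 and 41.2 TPM, Chek1, the S-phase checkpoint kinase, 16.8, 19.7, 7.44 and 4.21 TPM, and Dtl, which directs Cdt1 to degradation in S phase, 19.1, 29.8, 8.69 and 8.52 TPM. Dtl in CD8+ T-cells had medians of 50.7, 9.69, 9.13 and 3.47 TPM. Mcm3 had L1210 medians of 115, 172, 119 and 66.95 TPM. In CD8+ T-cells 20 of 44 members (45.5%) had an unadjusted p under 0.05 in the course test, against 12.6% of all genes.

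Other genes of replication and of the later cycle were read beside the members. Of 66 further replication and S-phase genes, 3 were called for the course in CD8+ T-cells, the methylation factor Uhrf1 (adjusted p = 0.0153), the polymerase subunit Pold2 (adjusted p = 0.0302) and Cdca7 (adjusted p = 0.0433) in limma, all with their fitted low at the last time, and Orc2 was next (adjusted p = 0.0504). In L1210 cells 0 of 66 were called, 8 had an unadjusted p under 0.05, and Pole2, Hells, Casp8ap2 and Tipin had the lowest p. Of 40 G2 and mitosis genes, 6 were called for the course in CD8+ T-cells, led by Cdk1, Aurkb, Top2a and Smc4 with their fitted low at 0.5 h, and 5 rose by the slope test (Cdk1 by 0.44 ± 0.08 log2 units per hour, SE). The median slope of the 40 was 0.141 log2 units per hour, against -0.123 for the members. In L1210 cells 0 of 40 were called in limma, 16 had an unadjusted p under 0.05, and Cdc20, Tpx2, Plk1 and Nusap1 had the lowest p. Across cells the members' mean followed the mitosis genes' mean with r = 0.198 (97 CD8+ T-cells) and 0.607 (81 L1210 cells).

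Whether the courses of the 2 cell types differ was tested by the interaction of cell type with both terms of hours, over cells up to 9.5 h. It called 0 of 44 members, where 0.0328% of 9158 genes were called in limma, and 7 of 44 (15.9%) had an unadjusted p under 0.05, against 5.46% of all genes. Ung had the lowest p (adjusted p = 0.0759) and passed under 3 of 9 alternatives (adjusted p from 0.0121 to 0.503), followed by Mcm4 (adjusted p = 0.378), Ccne2 (0.447) and Mcm3 (0.686). The early position in CD8+ T-cells and the mid-interval position in L1210 cells are thus each cell type's own values and were not shown to differ gene by gene. Equal hours need not be equal phases of the cycle in the 2 cell types, and cell type cannot be told apart from strain and culture in this test either.

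The second comparison asks whether cells of a lineage resemble each other in these genes. Without hours in the fit they did for many members. With lineage as a fixed factor in limma, 14 of 44 members (31.8%) differed between 27 CD8+ lineages (90 cells), where 12.9% of 9995 genes were called. Between 24 L1210 lineages (79 cells) 25 of 44 (56.8%) differed, where 13.5% of 10534 genes were called. In CD8+ T-cells Ung led (adjusted p = 0.000522), followed by Dtl (0.00348), Tk1 (0.00375), Cdc6 (0.00375) and Pold1 (0.00539), the catalytic subunit of polymerase delta. In L1210 cells Cdc6 led (adjusted p = 2.07e-05), followed by Cdt1 (2.53e-05), Ung (0.000112), Pola2 (0.000349), a subunit of the polymerase that primes DNA strands, and Dtl (0.000413). By role, 6 of 15 licensing and helicase genes were called in CD8+ T-cells and 9 of 15 in L1210 cells, 2 and 8 of 13 polymerase and fork genes, 2 and 3 of 5 cyclin E and E2F genes, 1 and 1 of 4 nucleotide supply genes, and 3 and 4 of 7 checkpoint, repair and chromatin genes. Of the 40 G2 and mitosis genes 18 (45%) and 30 (75%) were called, and of the 66 further replication genes 7 (10.6%) and 15 (22.7%).

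Cells of a lineage share their time since division closely, sisters being 0.0532 h apart on average in CD8+ T-cells and 0.0413 h in L1210 cells and cousins 0.388 and 0.929 h, against 2.49 and 3.91 h for unrelated pairs. With hours as a further term, 4 of 44 members were called between CD8+ lineages (Dtl, Orc1, Cdt1 and E2f2), a share near the 8.17% of all genes called. Ung, Tk1, Cdc6 and Pold1, among the 5 members of lowest p without hours, were then not called. Between L1210 lineages 22 of 44 were called, where 9.02% of genes were. The number of detected genes also ran in lineages: CD8+ sisters differed by 1295 genes and L1210 sisters by 1185 on average, and unrelated pairs by 1894 and 1768. With that number as a term, 14 members were called between CD8+ lineages (10.1% of genes) and 13 between L1210 lineages (4.84% of genes), and with both terms together 5 (6.55% of genes) and 7 (3.08% of genes). Those 7 were Cdc6, Cdt1, Dtl, Ung, Mcm2, Pcna and Rfc5.

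A single pair of sisters carried much of the L1210 count. L1210_8 and L1210_84, released 10.35 and 10.3 h after division with 2718 and 4951 genes above 0 TPM, had 2 and 14 of the 44 members above 0. The ribosomal RNA Rn45s took 79.3% and 27.4% of their TPM, against 22.3% ± 8.40 (SD) over the 81 L1210 cells. With TPM rescaled without Rn45s and all cells kept, 24 of 44 members were called. Over the processing alternatives listed at the end, from 324 to 1516 of all genes were called, against 1417 without such changes. Without this lineage 8 of 44 members were called (Cdc6, Cdt1, Ung, Dtl, Mcm3, Ccne2, Slbp and E2f8), where 4.8% of genes were, and among cells with 4000 or more genes 7 of 44, where 6.33% were. In CD8+ T-cells leaving out any 1 lineage gave from 11 to 16 members, and among cells with 4000 or more genes 17 were called, where 14.8% of genes were.

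Complete lineages, with both sister pairs retained, show what the lineage test reads. Cdc6 in L1210 cells was above 0 in all 4 cells of 7 lineages, in some cells of 6 and in no cell of 1, of 14 lineages in all. The cells of the lineage with none above 0 had 1610, 2747, 8245 and 8762 genes above 0 TPM. In 1 lineage the first sisters, 4.93 and 4.98 h after division, had 40.2 and 40.5 TPM and their cousins, at 2.05 and 2.11 h, 39.6 and 44.8 TPM. In another, sisters at 8.32 and 8.38 h were listed at 0 and their cousins at 8.28 and 8.32 h had 25.4 and 55.0 TPM, so that the pairs of 1 founder stood apart at nearly the same time. In yet another lineage sisters at 1.33 and 1.38 h had 37.4 and 7.79 TPM and their cousins at 2.50 and 2.52 h were listed at 0. Cdt1 was above 0 in all cells of 13 of the 14 lineages, and Pcna and Pola2 in all cells of 14.

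Ung in CD8+ T-cells was above 0 in all 4 cells of 8 of 16 lineages, in some cells of 7 and in none of 1. The lineage with the highest mean, 1.27 to 1.90 h after division, had 83.3, 95.2, 19.4 and 115 TPM, and the lineage with no cell above 0 was 6.25 to 6.37 h old. A lineage of nearly that age, 6.19 to 6.38 h, had 11.7, 51.1, 38.3 and 84.95 TPM, the fourth highest mean of the 16. Tk1 was above 0 in all cells of the 16 lineages, with 1054, 391, 251 and 238 TPM in the lineage of highest mean and 245, 127, 75.3 and 33.2 TPM in that of lowest. The cell with 1054 TPM had 3967 genes above 0, and the cells of the lowest lineage had 7790 to 8600. The lineages of next highest mean also held sparse cells, with 3392, 3577, 2639 and 2952 genes in their sparsest. The part of sparse libraries in these Tk1 levels was not tested beyond the fits given above.

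**Figure D4:**
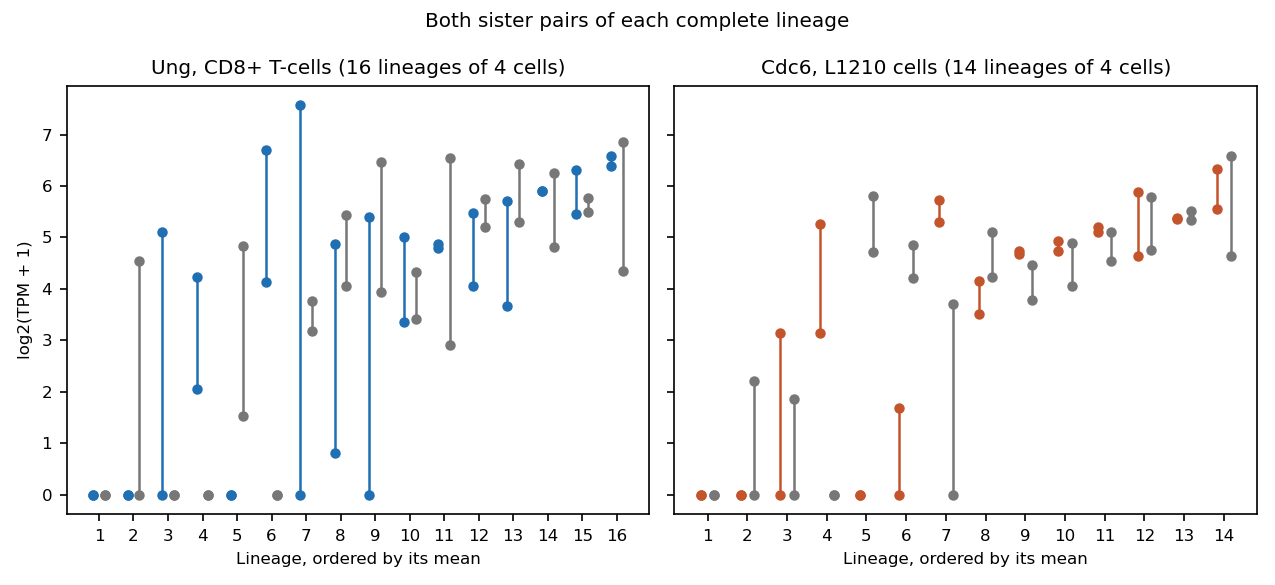
Ung in the 16 complete CD8+ lineages (left) and Cdc6 in the 14 complete L1210 lineages (right), in log2(TPM + 1), with lineages ordered by their mean. Each point is a cell, a line joins 2 sisters, and colour and grey mark the first and the second sister pair of a lineage. For Cdc6 the 7 lineages above 0 in all 4 cells lie at the right, and several others hold 1 pair above 0 and 1 at or near 0.

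Pair by pair, sisters lay closer than unrelated cells for 40 of 44 members in CD8+ T-cells (43 sister pairs) and 43 of 44 in L1210 cells (38 sister pairs), and cousins for 40 and 41 (72 and 62 cousin pairs). Over all genes tested, sisters were closer for 75.2% of genes among CD8+ T-cells and 77.7% among L1210 cells and cousins for 75.8% and 77.4%, beside 90.9% and 97.7% of the members for sisters. The median over members of the sisters' mean difference was 17.2% below that of unrelated pairs in CD8+ T-cells and 23.6% below in L1210 cells, and that of cousins 13.6% and 14.8% below. The same medians over all genes were -8.69% and -9.03% for sisters and -7.86% and -8.28% for cousins. Cdc6 in L1210 cells stood out, with a mean difference of 1.10 log2 units between sisters, 1.63 between cousins and 2.57 between unrelated cells, and a correlation of 0.765 over the 38 sister pairs. Ung had the largest reduction in CD8+ T-cells, at 1.89 log2 units between sisters, 1.91 between cousins and 2.99 between unrelated cells. Against unrelated pairs released within 1 h of each other, sisters were closer for 38 of 44 members among CD8+ T-cells (86.4%) and for 29 of 44 in L1210 cells (65.9%), where 69.5% and 65.4% of all genes were. Gins1, a GINS subunit with many cells listed at 0, showed almost no difference between sisters and unrelated pairs (2.87 and 2.81 log2 units for CD8+ T-cells, 2.43 and 2.49 for L1210 cells). Pairs share cells, so these counts are a description with no test.

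**Figure D5:**
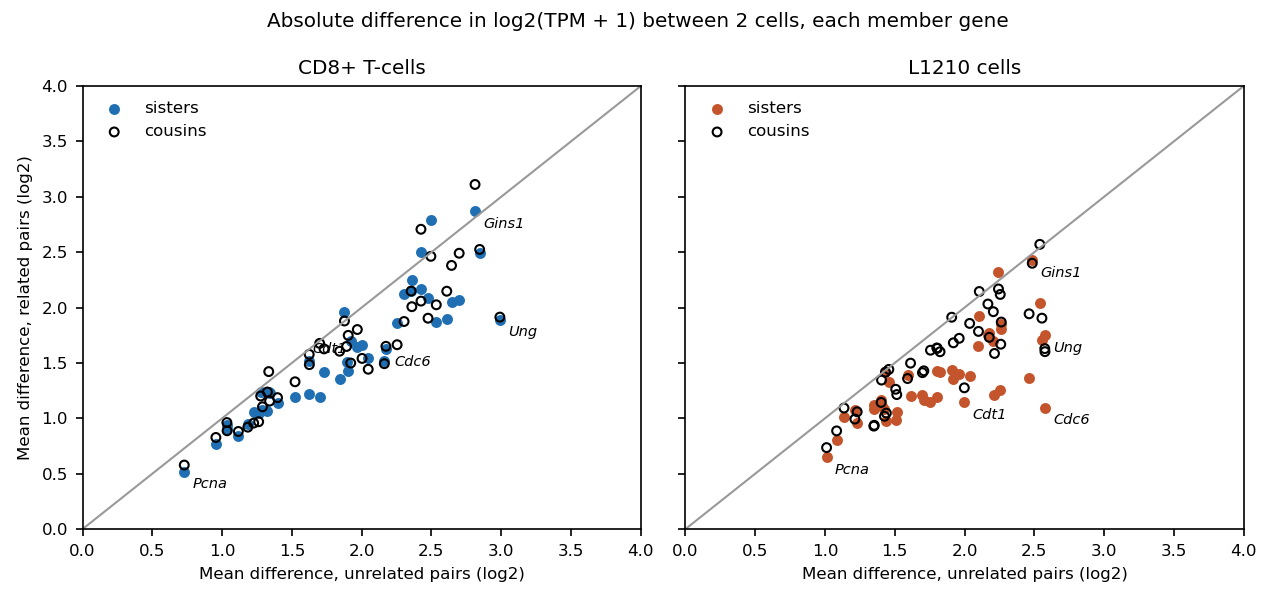
Mean absolute difference in log2(TPM + 1) between related cells (vertical axis) against unrelated cells (horizontal axis), one filled point per member for sisters and one open point for cousins, in CD8+ T-cells (left) and L1210 cells (right). Points under the grey line of equal values are genes in which related cells are closer. Sisters lie under it for 40 and 43 of the 44 genes, and Cdc6 in L1210 cells lies farthest below.

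Sisters were also set against cousins of the same lineage. The mean difference was smaller between sisters than between cousins for 25 of 44 members (56.8%) among CD8+ T-cells and 32 of 44 (72.7%) among L1210 cells, where it was for 50.1% and 52.6% of all genes, so that the CD8+ share is near that of all genes. With the sister pair within the lineage as a factor, limma called 0 of 44 members in 16 complete CD8+ lineages (64 cells), where 0.07% of genes were called, and 0 of 44 in 14 complete L1210 lineages (56 cells), where 0.057% were. An unadjusted p under 0.05 was reached by 2 of 44 members in CD8+ T-cells (Mcm6 and Pola2), against 6.38% of all genes, and by 4 of 44 in L1210 cells (Cdc6, Ccne2, Pcna and Cdc45), against 6.06%. Cdc6 in L1210 cells had the lowest p of the members (adjusted p = 0.214, limma), and it passed under 2 of 9 alternatives (adjusted p from 0.0108 to 0.334).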

How the data were processed

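Single-cell Smart-Seq2 libraries were sequenced on a NextSeq500. Per the submitters' processing notes, TopHat2, RSEM 1.2.3 and mm10 were used, and the authors deposited 1 table of TPM (transcript levels scaled to sum to 1000000 in each library) for 194 cells. TPM keeps no read count, so depth is unknown from the table, no counting interval is given, and the number of genes above 0 stands in for it. Every column was mapped to its labels (0 left unused). Libraries labelled doublets and those under 1000 genes were left out. No doublet caller was run, and 3 sister or cousin labels that were not returned by the other cell were dropped.

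Tests used limma 3.58.1 with statmod 1.5.0 in R 4.3.3 on log2(TPM + 1), over genes with ln(TPM + 1) above 1 in more than 10% of cells, with p-values adjusted by Benjamini and Hochberg's method over every gene in the fit, at a threshold of 0.05. Fold changes on this scale understate those of low genes. Hours were fitted with lineage as a random block, and lineage and sister pair were fitted as factors. The fits were first tested on simulated data. Descriptions used Python 3.11.15, numpy 2.4.6, pandas 2.3.3 and matplotlib 3.10.9. The members, lists and tests were chosen with earlier results of these data known. Genes described in detail are 15 fixed anchors, the 8 members of lowest course p and the 5 of lowest lineage p in each cell type. Alternatives were other pseudocounts and filters, ranks, covariates, cells of 4000 or more genes, and leaving out cells or lineages.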

Additional observations from a re-analysis of the deposited data

Results flagged for a closer look

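Libraries labelled doublets enter no comparison, and the members were above 0 TPM in them: the median over the 4 CD8+ libraries was 37.5 of 44 members, with 37, 36, 38 and 41 in CD8_43, CD8_46, CD8_63 and CD8_64. These 4 were released 0.2 to 0.55 h after division, and the mean of the members was 4.80 to 5.79 log2 units. The 2 L1210 libraries labelled doublets had 10 and 26 members above 0.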

How the results depend on the processing

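No paired analysis was possible because the numbers in the labels only index libraries and the cell types share no animal or lineage. The labels name no run for any cell. Where a count of called members moved by more than 1.5 times, the cause was not tested. For the course in CD8+ T-cells (3 members), 6 were called with a pseudocount of 10 TPM, 9 with cells taken as independent and 1 without the cells of 9 h and later. The last of these fits called 0.33% of all genes, and no alternative called more than 223 genes, against 88 without such changes. The slope in CD8+ T-cells (3) gave 7 with the pseudocount of 10 TPM and 1 without the cells of 9 h and later. No alternative of this slope called more than 64 genes, against 23 without such changes. Lineage agreement in CD8+ T-cells (14) gave 4 with hours in the fit (8.17% of genes), 5 with hours and detected genes (6.55%), and 29 with ranks within a gene. No alternative of this test called more than 2196 genes, against 1289 without such changes. In L1210 cells the course (0) gave 1 member, Ung, with cells of 4000 or more genes, with detected genes as a covariate, without the cell L1210_15 (1610 genes above 0, 55.5% of its TPM in Rn45s), and with cells taken as independent, and the difference of the course between cell types (0) gave 1, Ung, under the first 3 of these. Lineage agreement in L1210 cells (25) gave 7 with cells of 4000 or more genes (6.33% of genes), 13 with detected genes (4.84%), and 7 with hours and detected genes (3.08%). The sister test in L1210 cells (0) gave 1 member with no filter on low values, with cells of 4000 or more genes and without L1210_15. The other 80 values of these counts stayed within 1.5 times. Counts and F tests have no direction, so a reversal was looked for only in the CD8+ slopes of the called members. Over the alternatives these slopes stayed below 0, from -0.997 to -0.297 log2 units per hour for Ung, -0.818 to -0.227 for Ccne2 and -0.391 to -0.286 for Mcm4.

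Leaving out each lineage in turn gave 2 to 6 members for the CD8+ course (5 without the lineage of CD8_65 and 6 without that of CD8_83), with Ung and Ccne2 called in 31 of 31 fits and Mcm4 in 20 (adjusted p from 0.0152 to 0.152, limma), 0 to 1 for the L1210 course, the 1 being Ung without the lineage of L1210_3, L1210_11, L1210_34 or L1210_77 (adjusted p = 0.0353, 0.0126, 0.0136 and 0.0105, limma), 11 to 16 for CD8+ lineage agreement and 8 to 30 for that of L1210 cells. These course fits kept the lineage correlation estimated with all lineages. Leaving out the lineage of CD8_5 drops the same 3 cells as the fit without cells of 9 h and later. With the correlation estimated again in that fit, Ccne2 was not called (adjusted p = 0.0541, limma). Over the alternatives other than leaving out single lineages, the number of all genes called ran from 33 to 223 for the CD8+ course (88), 17 to 64 for its slope (23), 655 to 2196 for CD8+ lineage agreement (1289), 4 to 84 for its sister test (7), 0 to 5 for the L1210 course (1), 0 to 3 for its slope (0), 324 to 1516 for L1210 lineage agreement (1417), 2 to 75 for its sister test (6) and 1 to 14 for the difference between cell types (3). The cells of 9 h and later, the lineage of L1210_8 and L1210_84, and the leaving out of single lineages were chosen after seeing the data. The TPM table holds no read depth per cell, so a gene listed at 0 cannot be told apart there from a transcript that was not captured.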
